A study of Danio rerio with 14 samples.

Results

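The 6 arrays taken at night hours were compared by the light history of the fish: 3 arrays from fish under a light-dark cycle (LD) and 3 from fish kept in constant darkness (DD), of 14 arrays in all. They were chosen by collection time from the labels, and each LD array was set against the DD array of the same hour. Time of day is given as zeitgeber time (ZT), in hours after the lights came on, and the night collections were at ZT14, ZT18 and ZT22, when neither group was under light. LD fish had passed through a light phase of 12 h before the dark phase of 12 h. DD fish had no light phase in the cycle of collection, and how long they had been in darkness before it was not given in the sources used here. All fish, LD and DD alike, were adult Tg(aanat2:EGFP)Y8 zebrafish of 3 to 6 months, males and females, at 28 °C, with green fluorescent protein under the aanat2 promoter as the marker used to dissect the gland. An array held RNA from 12 pooled glands, so each hour and condition had a single pool.

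The fish pineal gland is a light-sensitive organ of the brain roof whose photoreceptor cells carry their own circadian clock. Its main output is melatonin, made at night by a chain that includes aralkylamine N-acetyltransferase, the aanat2 product. In zebrafish, light resets the clock partly through light-induced genes such as per2 and cry1a, and clock-controlled factors go on cycling in darkness.

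The arrays carried the defining markers of the gland. The pineal opsin gene exorh had signals of 12934.5, 13869.4 and 13924.9 in LD, against 11665.3, 12618.8 and 9489.2 in DD, in the order ZT14, ZT18 and ZT22, which is kept for every triplet of values. Signals are the deposited intensities, scaled by the authors to a common trimmed mean. The hybridisation spikes, RNA added to each sample before hybridisation, were brighter on the LD night arrays, with geometric mean signals of 653.7, 650.8 and 732.6, against 478.1, 483.2 and 562.3 on the DD night arrays. The ratio of 3' to 5' GAPDH signal, a measure of RNA integrity taken here after 2 rounds of amplification, was 12.89, 10.01 and 7.29 in LD. In DD it was 9.38, 9.86 and 12.34. The same ratio for the muscle actin gene acta1 was 0.86, 0.35 and 1.48 in LD, against 7.04, 1.81 and 2.47 in DD. A separate probe set of acta1a was too dim to be tested, with 15.7, 27.4 and 22.8 in LD, against 19.9, 20.2 and 4.8 in DD. The poly-A spikes, a second set of control RNAs, had geometric means of 106.5, 135.4 and 134.6 in LD, against 147.6, 122.2 and 123.1 in DD. The hybridisation spikes and the actin ratio thus separated the conditions, and the poly-A spikes and the GAPDH ratio did not. Their part in the results below was not tested. No batch was given in the labels, so a batch that divided LD from DD arrays and the light history cannot be told apart.

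At night, in the dark, pineal arrays of LD fish differed from those of DD fish. The genes lower in LD included the beta globin gene hbba2, the interferon factor irf7, the heat shock genes hspb1, hspa8b and hsp70.3, and the clock-related genes rorcb and nfil3-5. The genes higher in LD included the prostaglandin D synthase gene ptgdsb.2, the Hedgehog co-receptor gene cdon, the polyamine enzyme gene sat1a.2 and photoreceptor genes such as rcvrn3 and pde6ha. The melatonin synthesis genes were not called at night, and no gene was called for a change of the LD-DD difference over the night.

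Of 9300 probe sets tested, 272 (2.92%) passed an adjusted p of 0.05, with 127 (1.37%) higher and 145 (1.56%) lower in LD, by limma with the collection time as a block and Benjamini-Hochberg adjustment. At an unadjusted p under 0.05 there were 1917 (20.6%), where 465 would be passed by chance. The called probe sets named 190 genes, 88 higher and 102 lower in LD, and 80 called probe sets had no single gene name. A called difference had a median size of 1.03 on the log2 scale, against 0.25 over all probe sets tested. Differences over 1 log2 unit numbered 54 higher and 86 lower in LD, and 10 exceeded 2. All 272 had the same sign at ZT14, ZT18 and ZT22, and in 254 of them the LD and DD arrays did not overlap. Over all tested probe sets the LD arrays lay wholly above the DD arrays in 12.8% and wholly below in 15.9%.

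The calls depended on every night collection. Without the pair of arrays at ZT18 none passed, although 1305 to 1309 still had an unadjusted p under 0.05; without ZT22 there were 5 and without ZT14 there were 26. Leaving out the LD or the DD array of an hour gave the same count as leaving out both, since the block for the hour then absorbs the remaining array. The day-hour arrays entered only through the shared spread: the count was 16 without the second pair of ZT2 arrays. It was 599 when the ZT10 array of DD, which correlated least with its group, was left out. That array had a poly-A spike mean of 839.3, against 59.9 to 149.8 on the other arrays. Its hybridisation spike mean (812.9) and GAPDH ratio (16.7) were also the highest of all arrays. It also entered the day differences given below. All 272 kept their sign in each of these fits. This outcome was fixed, since their sign was the same at every night hour and day arrays do not enter the difference.

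Genes lower in LD included the largest differences among called genes, and their known roles were mixed. Differences are LD minus DD on the log2(signal + 14.9) scale, as the mean of the 3 collections. Each is given with its moderated SE from the limma fit, whose spread is shared by night and day arrays. The largest was pla1a, a gene of a secreted phospholipase A1, with signals of 53.6, 61.1 and 1.9 in LD, against 1133.8, 690.2 and 469.4 in DD. Every LD array lay far below every DD array, and the LD array of ZT22 was near 0. The difference was -4.04 ± 0.84 (adjusted p = 0.0319), and because of the near-zero LD array it ran between -5.07 with a pseudocount of 1 and -3.27 with the median signal as pseudocount. It missed the threshold with a robust variance prior (adjusted p = 0.0932). By day, pla1a was higher in LD in the first ZT2 pair (305.7 against 121.1). The gene was lower in LD in the second ZT2 pair (39.7 against 917.8) and at ZT6 and ZT10.

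The adult beta globin gene hbba2, an abundant message of red blood cells whose probes near-identical globin genes can share, had 111.2, 127.2 and 123.1 in LD, against 1342.5, 2144.5 and 1245.3 in DD. The LD arrays were close together and all lay far below DD, with a difference of -3.51 ± 0.40 (adjusted p = 0.00505), 11.4-fold higher in DD. The collagen chaperone gene serpinh1b gave 94.0, 68.9 and 171.0 in LD, against 408.5, 1087.5 and 1197.9 in DD, and fell by 2.79 ± 0.36 (adjusted p = 0.00773). Neither gene overlapped between the groups, and the DD array of ZT14 held the lowest serpinh1b signal of DD.

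The genes irf7 and ifi44d, both known from the interferon response, were among the falls, and no list of such genes was tested. The interferon regulatory factor gene irf7 had signals of 57.0, 54.5 and 19.0 in LD, against 115.7, 810.0 and 166.3 in DD. The DD array of ZT18 stood highest, and the groups did not overlap (log2 difference -2.28 ± 0.47, adjusted p = 0.03). The interferon-induced gene ifi44d had 31.5, 7.4 and 49.5 in LD, against 82.4, 183.3 and 187.5 in DD, again with no overlap, and differed by -1.96 ± 0.34 (adjusted p = 0.0227). Its LD signals were dim, and the difference ran from -2.57 to -1.36 over the alternatives.

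The other large falls were in genes of varied or unnamed role. The phosphatidylinositol transfer protein gene pitpnaa had 133.7, 165.8 and 139.1 in LD, against 625.6, 467.1 and 841.7 in DD, and was 4.00-fold higher in DD (adjusted p = 0.0421). The gene fxyd3, of a family that regulates the sodium-potassium pump, had 197.4, 122.6 and 172.9 in LD, against 570.5, 480.0 and 802.7 in DD (log2 difference -1.81 ± 0.41, adjusted p = 0.041). In both, every LD array lay below every DD array. The gene igldcp gave 109.2, 130.0 and 127.2 in LD, against 356.4, 833.5 and 501.1 in DD, and fell by 2.00 ± 0.33 (adjusted p = 0.0199). The gene ponzr1, of the PLAC8 family, gave 140.2, 62.6 and 55.8 in LD, against 330.1, 638.2 and 398.8 in DD, and fell by 2.26 ± 0.39 (adjusted p = 0.0227), while its other probe set differed by -0.32. The RING finger gene rnf32 gave 57.6, 26.8 and 40.6 in LD, against 196.8, 132.1 and 190.5 in DD (log2 difference -1.75 ± 0.40, adjusted p = 0.041). None of these 3 genes overlapped between the groups, and pitpnaa, fxyd3 and rnf32 missed the threshold with no filter on dim probe sets, with a robust prior or with a prior without trend (adjusted p 0.0514 to 0.0661). In the first ZT2 pair by day, LD exceeded DD in pitpnaa (280.2 against 270.8), fxyd3 (654.1 against 432.2) and rnf32 (96.1 against 66.0). In the second pair LD was lower, with 163.1 against 740.7, 255.2 against 714.3 and 43.0 against 172.3. The genes igldcp and ponzr1 were lower in LD in both ZT2 pairs.

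Named genes higher in LD were led by ptgdsb.2, which encodes an enzyme of the lipocalin type that makes prostaglandin D2. Its signals were 573.6, 266.9 and 378.7 in LD, against 90.6, 50.4 and 87.5 in DD, and every LD array exceeded every DD array. The gene was 4.52-fold higher in LD (log2 difference 2.18 ± 0.28, adjusted p = 0.00773). The secreted matrix protein gene crtac1a followed with 191.6, 215.3 and 115.0 in LD, against 30.0, 29.7 and 38.9 in DD (1.95 ± 0.40, adjusted p = 0.0312). The zinc finger factor gene sall1a had 582.3, 314.4 and 319.7 in LD, against 71.5, 109.6 and 133.1 in DD (1.79 ± 0.31, adjusted p = 0.0227). Neither overlapped, and DD was low at all 3 hours in both.

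A steady rise was that of cdon, whose product is a surface co-receptor for Hedgehog signals. Its signals were 1182.6, 1220.6 and 1164.8 in LD, against 420.1, 472.3 and 423.4 in DD. The 3 arrays of each group lay within a narrow band, and the difference was 1.41 ± 0.15 (adjusted p = 0.00505), while its other probe sets differed by 0.74 and 0.21. The spermidine and spermine acetyltransferase gene sat1a.2 had 5030.6, 3985.5 and 4864.0 in LD, against 1934.9, 1949.3 and 1467.7 in DD (1.37 ± 0.18, adjusted p = 0.00773), and its other probe set differed by 1.50. The purine synthesis gene ppat had 219.3, 439.5 and 644.1 in LD, against 106.7, 124.9 and 227.1 in DD (1.36 ± 0.21, adjusted p = 0.0149). For sat1a.2 the groups did not overlap, and for ppat the LD array of ZT14 lay below the DD array of ZT22.

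Further rises were those of cetn4, wdr90 and chtf18. The centrin gene cetn4 had 2347.2, 2262.3 and 3367.7 in LD, against 1231.0, 1017.8 and 943.2 in DD (1.29 ± 0.31, adjusted p = 0.045). The WD-repeat gene wdr90 had 539.7, 644.8 and 899.7 in LD, against 330.6, 245.7 and 185.5 in DD (1.40 ± 0.26, adjusted p = 0.0227). Both had every LD array above every DD array. The replication clamp-loader gene chtf18 had 43.9, 92.5 and 134.2 in LD, against 6.6, 29.0 and 40.8 in DD (1.39 ± 0.25, adjusted p = 0.0227), again with no overlap. The cetn4 call was lost with no filter (0.063), under quantile normalisation (0.0551), without the block (0.0761) and with a prior without trend (0.0591), and chtf18 and ppat lost theirs without the block (0.0606 and 0.103). In the cell cycle list, 0 of 14 tested members were called in either direction, beside 1.28% higher and 1.6% lower over all genes. At an unadjusted p under 0.05, 0 rose and 2 fell, beside 8.84% and 11.6%.

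The last of the largest rises rested on dim or unsteady signals. The kininogen gene kng1 had 64.6, 74.2 and 79.2 in LD, against 4.5, 40.7 and 8.4 in DD (1.58 ± 0.34, adjusted p = 0.037), and missed the threshold with a pseudocount of 1 (0.0535). The parvalbumin gene pvalb8 had 171.7, 405.3 and 3.8 in LD, against 18.2, 52.2 and 3.1 in DD (1.73 ± 0.42, adjusted p = 0.0486). Both conditions were near 0 at ZT22, and the call was lost with a pseudocount of 1 (0.111) or without the block (0.232). The gene rims2a, of the presynaptic active zone, had 233.1, 377.8 and 1126.8 in LD, against 141.4, 159.2 and 249.9 in DD (1.32 ± 0.32, adjusted p = 0.0481). Its groups overlapped, because the LD array of ZT14 lay below the DD array of ZT22, and the widest gap was at ZT22. The rims2a call was lost with a pseudocount of 1 (0.0504), no filter (0.063), no block (0.118) or a prior without trend (0.058).

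**Figure D1:**
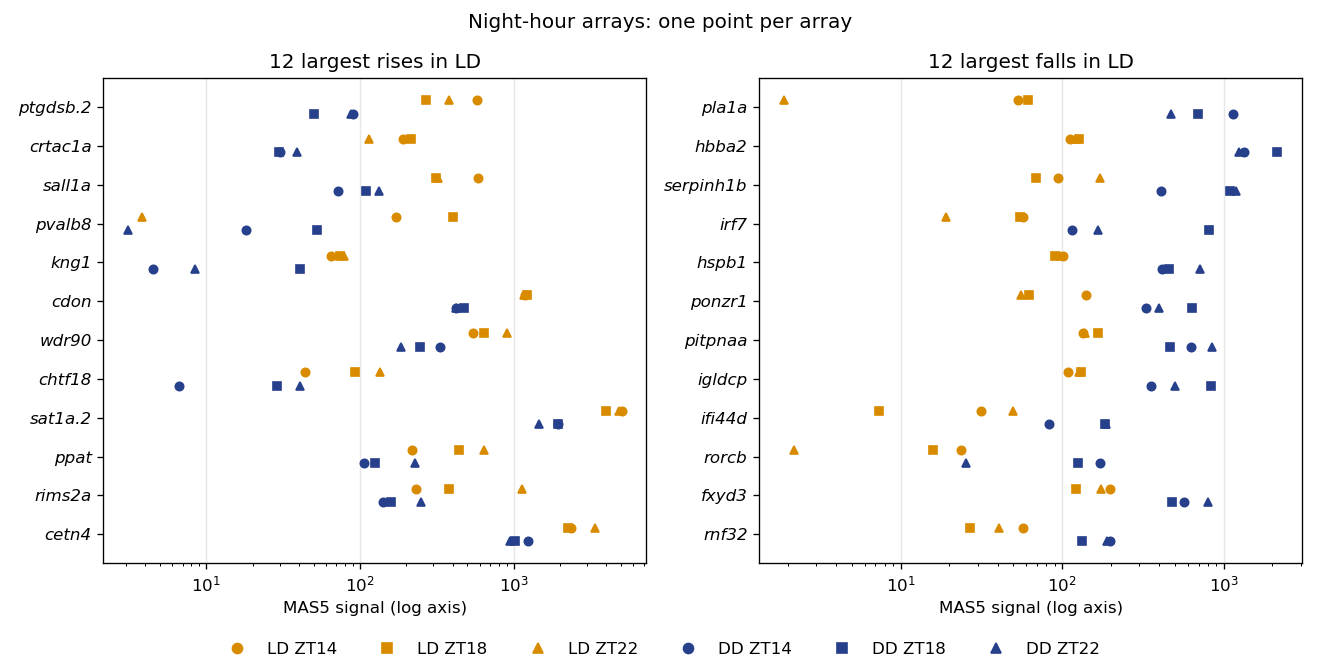
MAS5 signals (x axis, log) of the 12 largest rises (left) and the 12 largest falls (right) among called genes on the night-hour arrays, with 1 point per array, LD in orange above DD in blue, and the marker shape giving the hour. For pla1a the LD points lie between 1.9 and 61.1 and the DD points between 469.4 and 1133.8.

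The circadian clock was examined for whether the night course of its genes depended on the preceding light phase. The retinoic acid-related orphan receptor gene rorcb, a nuclear receptor of the family that activates bmal1 transcription, and nfil3-5, a repressor gene of the E4BP4 family, were lower in LD. The activator gene tefa, of the opposing PAR bZIP family, was higher. Core repressor genes such as per2 and cry1a were not called at night.

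The rorcb signals were 23.8, 15.9 and 2.2 in LD, against 171.5, 125.0 and 25.5 in DD. Every LD array lay below every DD array, the lowest values of both groups being at ZT22 (log2 difference -1.90 ± 0.35, adjusted p = 0.0234). The nfil3-5 signals were 1035.2, 219.0 and 24.6 in LD, against 2187.6, 892.1 and 100.0 in DD. Both groups were highest at ZT14 and lowest at ZT22, LD lay below DD at each hour, and the groups overlapped across hours (-1.52 ± 0.32, adjusted p = 0.0343). The tefa signals were 405.7, 507.6 and 1436.2 in LD, against 265.7, 273.5 and 430.1 in DD. Both groups were highest at ZT22, LD lay above DD at each hour (1.05 ± 0.25, adjusted p = 0.0482), and the other tefa probe set differed by 0.24. Without the block for the hour the calls of rorcb, nfil3-5 and tefa were lost (adjusted p 0.268, 0.703 and 0.34).

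The other repressor of the same family on the array, nfil3-6, had 335.7, 465.4 and 860.9 in LD, against 1360.3, 1196.9 and 1035.5 in DD. LD was below DD at each hour, and the difference of -1.19 ± 0.32 did not pass (adjusted p = 0.0655). The PAR bZIP and E4BP4 list therefore had 1 member higher and 1 lower of 3 tested, against 1.28% higher and 1.6% lower over all 6117 genes tested.

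The signals of 3 core clock genes over the night are described next, and none was called at night or for a change of the LD-DD difference over the night. The period gene per2, which light induces, had 503.9, 133.6 and 70.6 in LD, against 314.5, 330.7 and 286.3 in DD. LD was above DD at ZT14 and below it at ZT18 and ZT22, and the mean difference was -0.79 ± 0.39 (adjusted p = 0.278), with -0.10 for its other probe set. The cryptochrome gene cry1a had 33.1, 15.4 and 109.4 in LD, against 44.4, 30.6 and 40.4 in DD (0.09 ± 0.33, adjusted p = 0.91). The activator gene bmal1a had 206.3, 131.4 and 4.3 in LD, against 178.9, 113.6 and 48.9 in DD (-0.45 ± 0.33, adjusted p = 0.481). Both groups of bmal1a were lowest at ZT22, and the groups overlapped in all 3 genes.

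Further clock-related genes had their highest signals at ZT22. The repressor gene bhlhe41, chosen after its values were seen, had 50.0, 105.2 and 5219.2 in LD, against 42.8, 81.8 and 987.8 in DD. The related bhlhe40, chosen likewise, had 91.6, 72.0 and 4353.6 in LD, against 185.4, 169.1 and 896.5 in DD. In both genes ZT22 exceeded ZT14 and ZT18 in LD and in DD, and LD was the higher at ZT22. The cryptochrome gene cry2, also chosen after its values were seen, had 87.7, 128.1 and 1002.0 in LD, against 67.9, 87.6 and 111.6 in DD. The mean night differences were 0.96 ± 0.40 for bhlhe41, 0.09 ± 0.50 for bhlhe40 and 1.27 ± 0.44 for cry2, and the adjusted p of bhlhe41 and cry2 was 0.199 and 0.136. In cry2 both groups were highest at ZT22, with a small rise in DD. Its other probe set differed by 0.41, with 41.2, 75.9 and 441.9 in LD, against 72.5, 55.7 and 147.1 in DD. There too both groups were highest at ZT22.

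Of the lists, the clock positive limb had 0 members higher and 1 lower of 5 tested, and the clock negative limb 0 of 9 in either direction, with 2 higher at an unadjusted p under 0.05. Over all genes 1.28% were called higher and 1.6% lower, and 8.84% were higher at an unadjusted p under 0.05. The median difference of the negative limb was -0.30 at ZT14, 0.08 at ZT18 and 1.17 at ZT22. A change of the LD-DD difference from ZT14 to ZT22 was tested for every probe set as a linear trend. It passed for 0 of 9300, with 367 (3.95%) at an unadjusted p under 0.05 and a smallest adjusted p of 0.505. The 5 genes with the smallest trend p were kera, ciarta, stat3, podxl2 and osbpl7.

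The transcription repressor gene ciarta, a clock gene also known as CHRONO, had 3.1, 39.2 and 994.0 in LD, against 32.5, 33.2 and 324.8 in DD. LD was below DD at ZT14 and above it at ZT22, so the difference at ZT22 exceeded that at ZT14 by 2.97 on the log2 scale (adjusted p = 0.539). The signalling factor gene stat3 ran the other way, with 343.6, 150.8 and 104.8 in LD, against 24.6, 74.3 and 107.9 in DD, a trend of -3.22 with the same adjusted p. LD lay above DD in stat3 at ZT14 and ZT18 and just below it at ZT22.

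**Figure D2:**
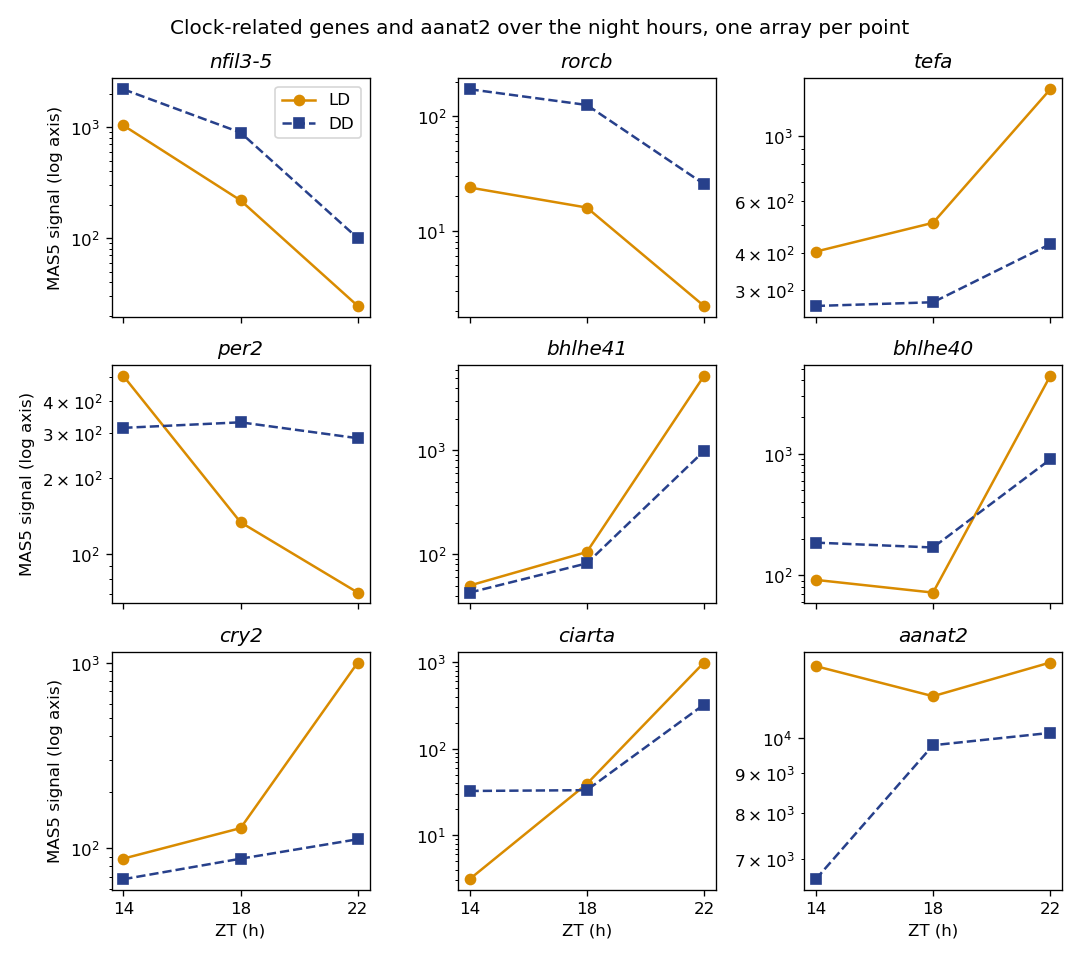
MAS5 signals (y axis, log) of clock-related genes and aanat2 at ZT14, ZT18 and ZT22 (x axis, hours; 1 array per point, LD and DD as separate lines). The LD line of nfil3-5 lies below the DD line at each hour and that of tefa above it, and the per2 lines cross between ZT14 and ZT18.

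Melatonin synthesis was compared because the aanat2 enzyme sets the nightly course of the hormone in the fish pineal. The aanat2 signals were 12349.7, 11301.2 and 12482.3 in LD, against 6587.6, 9780.1 and 10142.9 in DD. Every LD array exceeded every DD array, with the widest gap at ZT14, and the difference of 0.47 ± 0.46 did not pass (adjusted p = 0.613). The SE shares the spread of the day arrays, where the DD pools of ZT2 and ZT2b had 2905.9 and 7487.5. Over the alternative limma fits the adjusted p of aanat2 ran from 0.0891 to 0.876. The tryptophan hydroxylase gene tph1a, for the first step, had 7177.5, 9450.7 and 9148.5 in LD, against 5805.6, 6127.7 and 4858.7 in DD. The groups of tph1a did not overlap either (0.61 ± 0.27, adjusted p = 0.226). The decarboxylase gene ddc had 2349.5, 2273.4 and 3219.9 in LD, against 3961.2, 3483.7 and 3082.2 in DD (-0.43 ± 0.22, adjusted p = 0.301), and its groups overlapped. The list of 4 tested members had 0 calls in either direction, beside 1.28% higher and 1.6% lower over all genes. At an unadjusted p under 0.05 it had 1 member higher, beside 8.84%.

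Most tested genes of the phototransduction, retinoid cycle and transcription factor lists had higher values in LD at night, and 6 were called. Values were above 0 for 20 of 24 phototransduction genes, 7 of 10 retinoid cycle genes and 12 of 15 pineal and photoreceptor transcription factors, beside 48.2% over all genes. The phototransduction list had 2 of 24 tested members called higher and 0 lower, the retinoid cycle list 3 of 10 higher and 0 lower, and the transcription factor list 1 of 15 higher and 0 lower. Over all genes 1.28% were called higher and 1.6% lower. At an unadjusted p under 0.05, 11, 4 and 4 members were higher and 1 was lower in each list, beside 8.84% higher and 11.6% lower over all genes. The medians were 0.28, 0.33 and 0.31 for these lists, against -0.01 over all genes tested, and all stayed above 0 under each scaling tried.

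The recoverin gene rcvrn3, for a calcium sensor of the phototransduction cascade, had 1985.5, 1489.8 and 2143.6 in LD, against 794.2, 691.8 and 884.3 in DD. Its arrays did not overlap, and it was 2.33-fold higher in LD (1.22 ± 0.17, adjusted p = 0.00773). The gene pde6ha, for the inhibitory subunit of cone phosphodiesterase, had 13826.9, 7459.2 and 6649.5 in LD, against 5567.3, 4814.3 and 4604.1 in DD. The LD array of ZT14 was the brightest, the groups did not overlap (0.82 ± 0.18, adjusted p = 0.0394), and the other probe set differed by 1.87. The opsin gene opn1lw1, chosen after its values were seen, ran the other way, with 7230.2, 4317.3 and 2085.2 in LD, against 9342.8, 7526.9 and 5110.0 in DD (-0.82 ± 0.25, adjusted p = 0.0938). It was lower in LD at each hour, and its groups overlapped across hours.

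In the retinoid cycle, which regenerates the chromophore of opsins, 3 genes rose. The retinal isomerase gene rpe65a had 5355.9, 5680.0 and 16702.9 in LD, against 3702.9, 3737.3 and 8722.9 in DD (0.69 ± 0.15, adjusted p = 0.0353). LD was above DD at each hour, both were highest at ZT22 so that the groups overlapped across hours, and the other probe set differed by 1.28. The retinaldehyde-binding protein gene rlbp1a had 2542.9, 2732.8 and 2550.6 in LD, against 1748.0, 1873.1 and 1339.4 in DD (0.67 ± 0.15, adjusted p = 0.041). The retinol-binding protein gene rbp4l had 19535.2, 16249.6 and 18249.0 in LD, against 13745.6, 13002.3 and 12960.6 in DD (0.44 ± 0.10, adjusted p = 0.0386). Neither of these 2 overlapped. The rbp4l call was lost under quantile normalisation (adjusted p = 0.236), and pde6ha, rpe65a, rlbp1a and rbp4l each missed the threshold with no filter, without the block and without a trend in the prior.

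The homeobox gene otx5, which in zebrafish controls circadian genes of the pineal, had 202.9, 230.7 and 155.6 in LD, against 118.9, 125.7 and 79.4 in DD. Every LD array lay above every DD array (0.79 ± 0.17, adjusted p = 0.0383), and the call was lost with no filter (0.063). The related photoreceptor factor gene crx had 1414.9, 1433.8 and 975.7 in LD, against 1625.7, 1233.1 and 883.7 in DD, with overlapping groups (0.05 ± 0.22, adjusted p = 0.923). The factor gene foxd3, which acts in zebrafish parapineal development, was named after its values were seen. Its signals were 601.8, 475.0 and 646.8 in LD, against 259.1, 213.7 and 291.5 in DD, with no overlap (1.13 ± 0.21, adjusted p = 0.023).

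Some heat shock genes fell in LD, and a cold-inducible gene rose. Of 38 tested members of the chaperone list, 4 were called lower and 1 higher, beside 1.6% lower and 1.28% higher over all genes. At an unadjusted p under 0.05 there were 9 lower and 3 higher, beside 11.6% and 8.84%. The list median was -0.07, with 18 members above and 20 below 0, beside 48.2% above and 51.8% below over all genes. Called members were the small heat shock gene hspb1, the Hsp70 genes hsp70.3 and hspa8b, the mitochondrial co-chaperonin gene hspe1 and the RNA-binding protein gene cirbpb, whose mammalian counterpart rises in the cold.

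The hspb1 signals were 100.7, 90.4 and 96.6 in LD, against 417.1, 460.7 and 713.7 in DD (-2.26 ± 0.41, adjusted p = 0.0227). The hspa8b signals were 28.7, 36.0 and 61.7 in LD, against 90.4, 138.6 and 170.8 in DD (-1.38 ± 0.18, adjusted p = 0.00773). In both genes DD was highest at ZT22 and the groups did not overlap. The hsp70.3 signals were 50.6, 45.2 and 70.0 in LD, against 129.4, 224.0 and 158.7 in DD (-1.39 ± 0.26, adjusted p = 0.0227). The hspe1 signals were 405.9, 370.0 and 534.2 in LD, against 933.5, 1023.4 and 1159.2 in DD (-1.23 ± 0.20, adjusted p = 0.0167). For cirbpb they were 3761.9, 3881.2 and 2971.4 in LD, against 2378.5, 1748.9 and 1560.8 in DD (0.91 ± 0.18, adjusted p = 0.0261). None of these 3 overlapped between the groups, and the other cirbpb probe set differed by 0.23 ± 0.38 and was not called (adjusted p = 0.792). The hspe1 call was lost without the block (0.0827). Both groups were kept at 28 °C per the labels.

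Sterol synthesis and stress-response genes gave single calls. The gene insig1, whose product holds back the activation of sterol synthesis, had 79.8, 82.0 and 68.1 in LD, against 167.6, 233.9 and 264.1 in DD. LD was lower at every hour and the groups did not overlap (-1.35 ± 0.24, adjusted p = 0.0227), while its other probe sets differed by -0.69 and -0.32. It was the 1 call of 10 tested genes of cholesterol synthesis, of which 9 had a value below 0 (median -0.12). Over all genes 1.6% were called lower and 51.8% had a value below 0. The quinone reductase gene nqo1, of the antioxidant list, had 44.8, 43.6 and 49.0 in LD, against 113.8, 120.7 and 98.7 in DD (-1.05 ± 0.25, adjusted p = 0.0478). It was the 1 call of 21 members tested, its groups did not overlap, and it missed the threshold with a pseudocount of 1 (0.0683), no filter (0.0818), quantile normalisation (0.0546) or a prior without trend (0.0517).

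Immediate early and cAMP-responsive genes leaned to lower values in LD without a call. Of 22 tested members 0 passed in either direction, 0 were higher and 8 lower at an unadjusted p under 0.05 (8.84% and 11.6% over all genes), and 20 had a value below 0 (51.8% over all genes). The list median was -0.53, and by hour -0.29, -0.55 and -0.97. As examples chosen after their values were seen, fosab had 50.7, 56.2 and 30.3 in LD, against 127.1, 167.2 and 100.6 in DD (-1.27 ± 0.47, adjusted p = 0.154; -0.82 for its other probe set), and junba had 54.8, 28.1 and 31.4 in LD, against 80.7, 119.3 and 116.3 in DD (-1.20 ± 0.36, adjusted p = 0.0919). In both genes every LD array lay below every DD array.

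The lists of large housekeeping complexes gave 1 call or 0 each, beside 1.28% called higher and 1.6% called lower over all genes. Of the respiratory chain list, which also took in assembly factors, 1 of 82 tested members was called higher and 0 lower (median 0.05). The called member, the complex I subunit gene ndufa8, had 1500.6, 1462.6 and 1613.7 in LD, against 769.5, 911.0 and 841.5 in DD (0.85 ± 0.19, adjusted p = 0.0394). Cytosolic ribosomal proteins gave 1 of 73 higher and 0 lower (median -0.01), the call being rplp2b with 7497.7, 6877.4 and 7604.4 in LD, against 4978.8, 4940.9 and 3360.0 in DD (0.75 ± 0.16, adjusted p = 0.0353). Neither gene overlapped between the groups, and both calls were lost with no filter and without a trend in the prior (adjusted p 0.0505 to 0.0725). Proteasome subunits gave 0 of 41 in either direction (median 0.05). The list of light-induced and DNA repair genes gave 1 of 17 higher, which was tefa, and 0 lower (median 0.08).

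**Figure D3:**
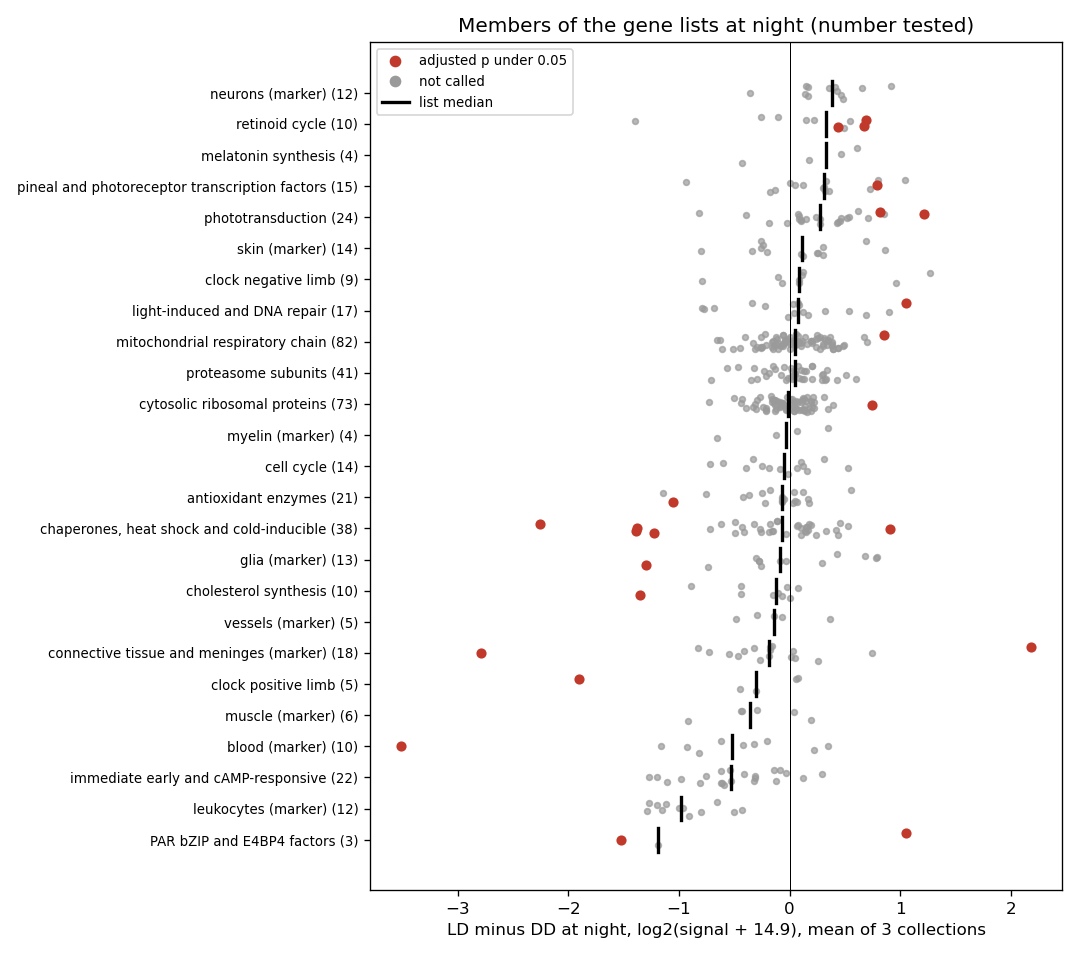
LD minus DD at night for each tested member of the gene lists with at least 3 tested members (log2(signal + 14.9), 1 point per gene, red where the adjusted p was under 0.05, black bar at the list median, lists ordered by median with the number tested). Neuron markers have a median of 0.38 and leukocyte markers one of -0.98, and neither list has a called member.

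Markers of other cells were examined because a dissected gland can carry blood and neighbouring tissue. In pooled tissue, fewer cells of a type and less RNA per cell cannot be told apart. Blood and leukocyte markers had lower summed signals in LD at ZT18 and ZT22, with a smaller gap or none at ZT14. The red cell list gave 0 of 10 tested members higher and 1 lower, which was hbba2, beside 1.28% and 1.6% over all genes. At an unadjusted p under 0.05 it had 4 members lower, beside 11.6%, and its median was -0.52. Its summed signal was 12699, 9150 and 8083 in LD, against 12523, 15230 and 16421 in DD. The sum in LD was thus slightly above DD at ZT14 and below it at ZT18 and ZT22. Most of this sum was the signal of the alpha globin gene hbaa1 alone. The list median by hour was -0.20, -0.39 and -0.94, so it was below 0 at ZT14 too.

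Red cell genes differed in size of change. The alpha globin gene hbaa1, named after its values were seen, had 11761.5, 8231.0 and 7309.5 in LD, against 10157.3, 11925.6 and 13913.8 in DD (-0.42 ± 0.23, adjusted p = 0.333). Its groups overlapped, unlike those of hbba2. The anion exchanger gene slc4a1a had 48.0, 33.6 and 44.3 in LD, against 93.9, 113.5 and 129.8 in DD (-1.16 ± 0.29, adjusted p = 0.0548), and the haem synthesis gene alas2 had 97.3, 111.7 and 83.9 in LD, against 170.5, 221.4 and 208.4 in DD (-0.93 ± 0.25, adjusted p = 0.0652). Neither of these overlapped, and both were chosen after their values were seen.

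All 12 tested leukocyte markers had values below 0, beside 51.8% over all genes. Of them 0 were called, beside 1.6% called lower over all genes, and 9 were lower at an unadjusted p under 0.05, beside 11.6%. The list median was -0.98, and by hour -0.25, -1.63 and -1.09. Its summed signal was 5752, 4788 and 4041 in LD, against 6691, 10204 and 7732 in DD, with no overlap. The genes cd74a and cd74b held much of this sum. The scavenger receptor gene marco, of macrophages, had 150.2, 124.0 and 101.2 in LD, against 230.3, 410.7 and 356.5 in DD (-1.29 ± 0.34, adjusted p = 0.0657). The pan-leukocyte gene ptprc had 52.1, 34.6 and 49.1 in LD, against 94.0, 152.4 and 103.9 in DD (-1.12 ± 0.29, adjusted p = 0.0626). Both were chosen after their values were seen, and every LD array lay below every DD array. The macrophage receptor gene csf1ra was dim, with 24.2, 11.4 and 13.3 in LD, against 19.1, 44.6 and 28.3 in DD, and was not tested. These markers moved in the same direction as irf7 and ifi44d, which immune cells express, and as hbba2, and their part in those falls was not tested.

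**Figure D4:**
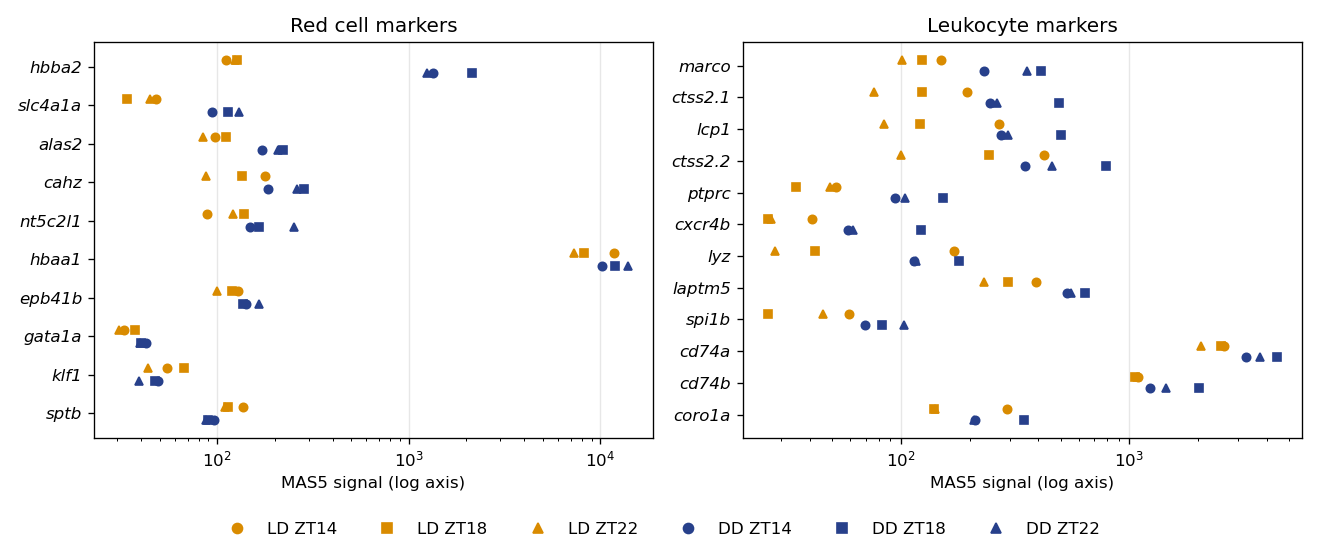
MAS5 signals (x axis, log) of the 10 tested red cell markers (left) and the 12 tested leukocyte markers (right) on the night-hour arrays, with 1 point per array, LD in orange above DD in blue, and the marker shape giving the hour. The LD points of hbba2 lie between 111.2 and 127.2 and the DD points between 1245.3 and 2144.5, whereas those of hbaa1 overlap.

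Connective tissue and meningeal markers gave 1 of 18 tested members higher and 1 lower, beside 1.28% and 1.6% over all genes. These were ptgdsb.2, which is also a marker of the meninges, and serpinh1b, so the largest rise of a named gene and one of the largest falls belonged to the same list. Its median was -0.19 and its summed signal 3338, 2966 and 3151 in LD, against 3424, 4240 and 4335 in DD. Neuron markers gave 0 calls of 12, with 4 higher and 0 lower at an unadjusted p under 0.05, beside 8.84% and 11.6% over all genes, and a median of 0.38. A dimmer probe set of the neuronal gene sncb, not used for the list, had 1055.8, 1002.6 and 1158.4 in LD, against 434.2, 381.2 and 382.5 in DD, with no overlap. It was called (1.39 ± 0.20, adjusted p = 0.00946), while the brighter sncb probe set differed by 0.47 and was not (0.0986). The synaptic gene snap25a, chosen after its values were seen, had 294.5, 356.1 and 267.1 in LD, against 209.1, 136.2 and 125.4 in DD (0.92 ± 0.32, adjusted p = 0.138).

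The remaining marker lists had few tested members or a single call. The habenula, which lies beside the pineal, had 2 tested markers, both lower in LD at an unadjusted p under 0.05, beside 11.6% over all genes. The called marker, kctd12.1, had 103.0, 109.2 and 115.1 in LD, against 382.6, 357.2 and 289.9 in DD (-1.52 ± 0.21, adjusted p = 0.00773). The other, kctd12.2, had 50.2, 52.1 and 53.4 in LD, against 105.5, 106.8 and 74.7 in DD (-0.71 ± 0.30, adjusted p = 0.205), with -0.16 for its other probe set. Glia gave 0 of 13 higher and 1 lower, which was the calcium-binding protein gene s100b with 319.7, 194.3 and 302.5 in LD, against 802.3, 514.9 and 749.9 in DD (-1.30 ± 0.21, adjusted p = 0.0199). In kctd12.1, kctd12.2 and s100b the groups did not overlap. Myelin (4 tested), vessels (5), skin (14), muscle (6) and pigment cells (1, pmelb) gave 0 calls in either direction. At an unadjusted p under 0.05 they gave 1, 0, 2, 1 and 1 members. Over all genes 1.28% were called higher and 1.6% lower, and the unadjusted shares were 8.84% and 11.6%.

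The night differences were then set beside those of the day-hour arrays, when LD fish were under light and DD fish were not. Most genes that differed at night differed the same way by day. Of the 272 night calls, 263 (96.7%) had the same sign by day, beside 72.2% of all probe sets, and 152 were also called by day. That overlap was 55.9% of the night calls and 17.7% of the 857 day calls (9.22%). Night and day calls used the same estimate of the spread for each probe set. A probe set with a low estimate was thus favoured in both, so the overlap follows in part from the fit. In 235 of the 272 the night difference was the larger in size, and the median size by day was 0.71, against 1.03 at night. The probe sets were selected for passing at night, so this size comparison follows in part from the selection.

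Called genes that carried through day and night included hbba2, with a day difference of -3.06 ± 0.34 (adjusted p = 0.000926), ptgdsb.2 with 1.99 ± 0.25 (0.00156), cdon with 1.19 ± 0.13 (0.000926) and otx5 with 1.31 ± 0.15 (0.000926). Genes called at night and not by day included hspb1 (day difference -0.99 ± 0.36, adjusted p = 0.0982), ifi44d (-0.39 ± 0.29, 0.416), insig1 (0.17 ± 0.21, 0.64), foxd3 (-0.14 ± 0.18, 0.666) and rims2a (-0.16 ± 0.27, 0.749). The clock-related rorcb and nfil3-5 had day differences of 0.68 ± 0.31 and 0.58 ± 0.28, opposite in sign to those at night and not called (adjusted p 0.172 and 0.196).

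A test of the difference itself, night minus day, passed for 0 of 9300 probe sets, with 527 (5.67%) at an unadjusted p under 0.05 and a smallest adjusted p of 0.153. No gene above was therefore shown to differ between night and day in its response. The 5 genes with the smallest p were dpf2, sik1, per2, LOC567909 and rorcb. For per2 the day difference was 2.36 ± 0.34 (adjusted p = 0.00331), against -0.79 ± 0.39 at night, and the difference between them had an adjusted p of 0.153. For sik1, a kinase gene that limits clock resetting in mice, the signals at night were 1885.5, 3050.8 and 3296.0 in LD, against 3426.5, 2916.4 and 3617.1 in DD (-0.31 ± 0.29), where the day difference was -2.70 ± 0.25 (adjusted p = 0.000657). The chromatin factor gene dpf2 had 173.0, 187.2 and 162.5 in LD, against 149.8, 138.2 and 175.3 in DD at night (0.16 ± 0.16), where the day difference was -1.24 ± 0.14. In sik1 and dpf2 the night groups overlapped.

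**Figure D5:**
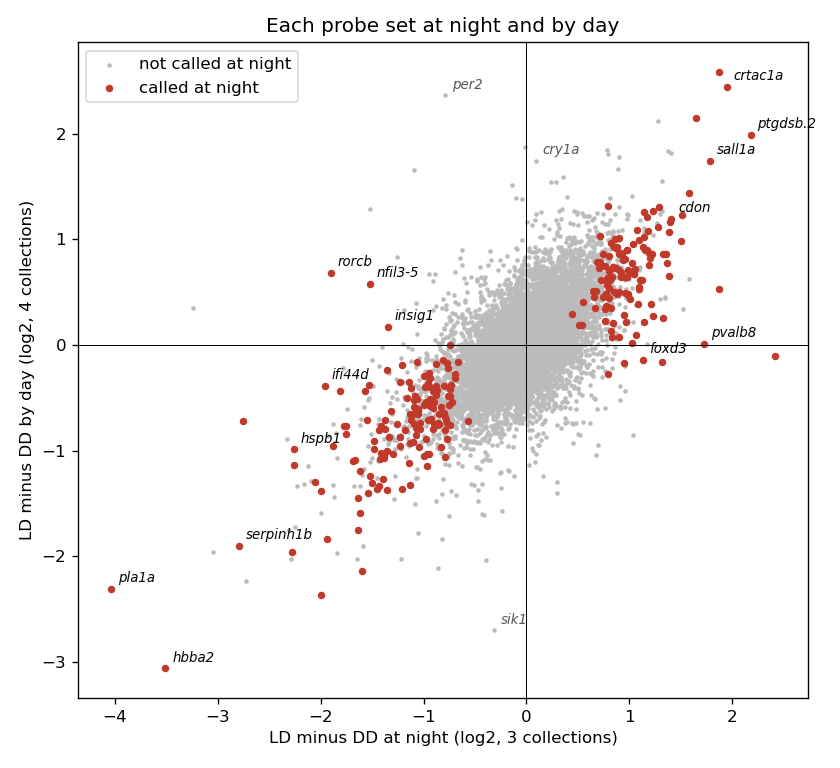
LD minus DD of each tested probe set at night (x axis, log2, 3 collections) and by day (y axis, log2, 4 collections), with night calls marked and some genes named. Of the 272 night calls, 263 lie in the quadrants where both values share a sign; hbba2 lies far to the lower left and ptgdsb.2 to the upper right.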

How the data were processed

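The deposited values are linear intensities (MAS5 signals), 1 per probe set and array. The submitters' processing notes name GCOS and MAS5 without versions. A scaling by the authors to a trimmed mean of 150.04 (150.05 on the LD array of ZT6) was recovered from the values. Per the labels' protocols, RNA of 12 pooled glands was amplified in 2 rounds and hybridised to 1 array. The p-values therefore measure the spread of single pools around the fitted model, which may be technical.

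Of 15617 probe sets, 115 controls and 1 with an empty cell were left out; 10795 had 1 gene symbol by the platform annotation (10711 checked by Entrez identifier, 1 updated), 135 several and 4572 none. No genome came with the data, so no coordinates or sequences are given. The analysis used log2(signal + 14.9), the 25th percentile being the pseudocount, and probe sets with a mean over 29.179 (the 40th percentile), which left 9300 and 6117 genes. A gene was read from its brightest probe set; other probe sets are given for most named genes that have them.

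limma 3.58.1 (lmFit, eBayes with trend) in R 4.3.3 fitted all 14 arrays with collection hour as a block and separate LD minus DD terms for night and day (6 residual degrees of freedom), Benjamini-Hochberg adjusted over 9300 probe sets; ZT2b was used as ZT2. Tested on simulated data for this comparison, it recovered 69 of 100 probe sets changed by 1 log2 unit and 100 of 100 changed by 2, with 9 false calls. Simulated arrays varied independently around the fitted model, with no unwanted difference between conditions. These counts therefore do not give the error rate in the real data.

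Named genes were the 12 largest called rises and falls, called members of 27 gene lists, the 5 smallest p of the trend and of the night minus day test, and a few genes of the clock and melatonin synthesis. The comparison and the lists were chosen with earlier results of these data known. Alternatives were other pseudocounts, filters, scalings, variance priors, the block, the 6 night arrays alone, and leaving out arrays.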

Additional observations from a re-analysis of the deposited data

Results flagged for a closer look

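The unnamed locus LOC567909 was singled out because every night collection moved one way and every day collection the other. Its night signals were 73.7, 111.9 and 59.4 in LD, against 312.5, 166.8 and 119.3 in DD, a log2 difference of -1.09 ± 0.37 (adjusted p = 0.128), lower in LD at all 3 hours. Its day signals were 918.0 (ZT2), 1091.2 (ZT2b), 501.7 (ZT6) and 548.1 (ZT10) in LD, against 189.2, 148.3, 216.7 and 390.2 in DD, a difference of 1.65 ± 0.32, higher in LD at all 4 collections. Night minus day was -2.73 ± 0.49, which did not pass over all probe sets tested (limma, adjusted p = 0.175).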

How the results depend on the processing

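All 272 called probe sets kept their sign under each alternative in which they were tested. Where arrays were left out this was fixed, because the sign was the same at every night hour and day arrays do not enter the difference. The count past the threshold moved. It was 138 with no filter on dim probe sets, 16 without the second ZT2 pair and 599 without the DD array of ZT10. With the 6 night arrays alone it was 668 with the replicate block (the collection hour) and 513 with neither block nor day arrays; leaving out night arrays gave 0 to 26. With other pseudocounts, filters, scalings or variance priors, with all arrays and no block, or with 1 probe set per gene, it was 186 to 283. The night minus day count was 0 to 1 when a night array was left out and 0 otherwise. The trend over the night had 54 calls from the 6 arrays with the block and 5 without it, and 0 otherwise. Same-hour LD and DD arrays deviated together with correlations of 0.157, 0.002 and 0.216 at ZT14, ZT18 and ZT22, against -0.202 to 0.090 for other pairs, so the pairing rests on the hour in the labels. Of 938 values of the 41 named called genes over the alternatives, 938 kept their direction and 513 the threshold, and 32 of the 41 lost their call without the second ZT2 pair; tph1a passed in 3 settings (adjusted p 0.033, 0.0391 and 0.0461) and LOC567909 in 1 (0.0368). Scaling hardly shifted the median probe set (-0.0118, 0.0309 with median centring, 0.0168 with quantile normalisation). The balance of the calls moved with it: 46.7% were higher in LD as deposited, 55% with median centring and 52.9% with quantile normalisation. The 3 pools per condition limit the precision, and dim signals near the pseudocount have no reliable fold.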

Other observations

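The array carries a probe set for green fluorescent protein, the reporter in all fish, whose signals were 43.9, 31.8 and 67.1 in LD, against 47.9, 48.0 and 62.8 in DD, with overlapping groups at night. These signals lay around the median signals of the night arrays (42.6 to 47.1). At this level the overlap does not show whether the reporter differed. A probe set for a red fluorescent protein, for which no transgene is named in the labels, had 21.7, 26.6 and 27.8 in LD, against 12.7, 52.1 and 33.3 in DD.

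Some genes with no call had a wider range over the night in LD than in DD. The photoreceptor receptor gene nr2e3 had 854.6, 612.6 and 2592.9 in LD, against 486.2, 533.5 and 584.9 in DD (1.04 ± 0.32, adjusted p = 0.101). The retinol carrier gene rbp4 had 4190.1, 2135.1 and 707.4 in LD, against 4662.9, 4769.0 and 5315.6 in DD (-1.40 ± 0.59, adjusted p = 0.205). The hormone- and clock-controlled factor gene klf9 had 169.8, 449.7 and 1330.2 in LD, against 328.5, 667.6 and 513.4 in DD. These 3 genes were chosen after their values were seen, and with 1 pool per hour the order of the hours has no replicate.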
